A study of Coryphaena hippurus with 32 samples.

Results

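BAX, APAF1, GADD45A and SESN2 are genes that the tumour suppressor p53 can switch on, and they were followed here in mahi-mahi (Coryphaena hippurus), an open-ocean fish, whose embryos and larvae were exposed to oil of the Deepwater Horizon spill and sequenced whole. They were found by their human gene symbols in the authors' deposited comparison tables and looked up by Entrez identifier (581, 317, 1647 and 83667) in the count table. The 4 genes are 4 of 10998 features with a count. Messenger RNA was sequenced at 24, 48 and 96 h post fertilization (hpf) in 9 groups, each with n = 3 libraries. At each stage there were controls in seawater without oil (0 g/l), animals in 1 g/l of slick oil and animals in 1 g/l of source oil, the concentrations that the labels give. Both oils were given as a high-energy water accommodated fraction, which is oil dispersed in seawater by strong mixing. Slick oil had weathered at the sea surface and source oil came from the well. Embryos entered the beakers freshly fertilized and the water was not renewed, so stage and time in oil are the same variable. Measured hydrocarbon concentrations were not used here, so the type of oil and its effective dose cannot be told apart.

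The p53 protein is stabilised by DNA damage and other stress and then activates genes that halt the cell cycle, aid repair or start apoptosis. In apoptosis, BAX opens the outer mitochondrial membrane, and the cytochrome c that escapes binds APAF1, the scaffold of the apoptosome, which activates caspase 9. GADD45A binds CDK1 and PCNA and the stress kinase MAP3K4, and slows the cell cycle after damage. SESN2, a sestrin, senses leucine, restrains the growth kinase complex mTORC1 and is induced by ATF4 in the integrated stress response as well as by p53. These roles are known from mammals.

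Each replicate was a pool of 30 animals. Among the controls, 5 pairs of samples differed by about as much as sampling noise gives (chi-square per degree of freedom at most 1.03, whereas the remaining 41 pairs within groups gave at least 1.18). Each such pair was counted as 1 sample, which turned 32 deposited samples into 27 libraries. A deposited sample held 1823727 to 2560303 counts over the 1 table line kept per gene. Levels below are CPM (counts scaled to library size, with TMM factors), and are compared for 1 gene at a time because gene lengths were not used. A gene is called where the adjusted p of edgeR's quasi-likelihood test is below 0.05 over all genes tested. Its p-values reflect the spread between replicate beakers, which the labels do not tie to separate spawns. CYP1A1, the hydrocarbon-oxidising enzyme that marks oil exposure, averaged 42.4 CPM in 24 hpf controls against 944 in slick and 328 in source. How fish reads were tied to human symbols is not stated in the processing notes, so fish paralogs may share a symbol or be split over lines.

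All members were counted at low depth. Over the 27 libraries BAX had 464 counts, APAF1 454, GADD45A 629 and SESN2 2281, with as few as 2 counts of APAF1 in 1 library. The spread within groups was close to counting noise, with a dispersion per degree of freedom of 1.19 for BAX, 1.5 for APAF1, 1.10 for GADD45A and 1.32 for SESN2, where 1 is what counting alone gives. BAX, APAF1 and GADD45A each had 1 table line. SESN2 had 5 lines of which 2 were distinct, and these differed by at most 5 counts in any sample. The 4 genes passed the filter on low counts at every stage, also when slick libraries were left out of the filter.

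The highest mean of all 9 groups was that of slick larvae at 96 hpf for each of the 4 genes. For BAX it was 9.77 ± 1.07 CPM (SD, n = 3) and the lowest mean was 4.69 ± 1.35 in 96 hpf controls. For APAF1 the means ran from 3.94 ± 2.44 CPM in source embryos at 24 hpf to 12.2 ± 3.26. For GADD45A they ran from 7.43 ± 0.139 CPM in source at 48 hpf to 14.8 ± 2.24. For SESN2 they ran from 22.6 ± 5.60 CPM in 24 hpf controls to 46.6 ± 3.37. In the order of means, the libraries of slick at 96 hpf did not overlap those of the next group for BAX and SESN2, and did overlap them for APAF1 and GADD45A. All other neighbours in the order overlapped for each gene. For BAX, groups further down the order did reach into the range of slick at 96 hpf, whose lowest library was 9.13 CPM. The highest BAX library was 11.9 CPM in source at 96 hpf and 10.1 CPM in slick at 48 hpf. For SESN2 the lowest library of slick at 96 hpf (44.3 CPM) was above every library of the other groups (at most 39.7 CPM).

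**Figure D1:**
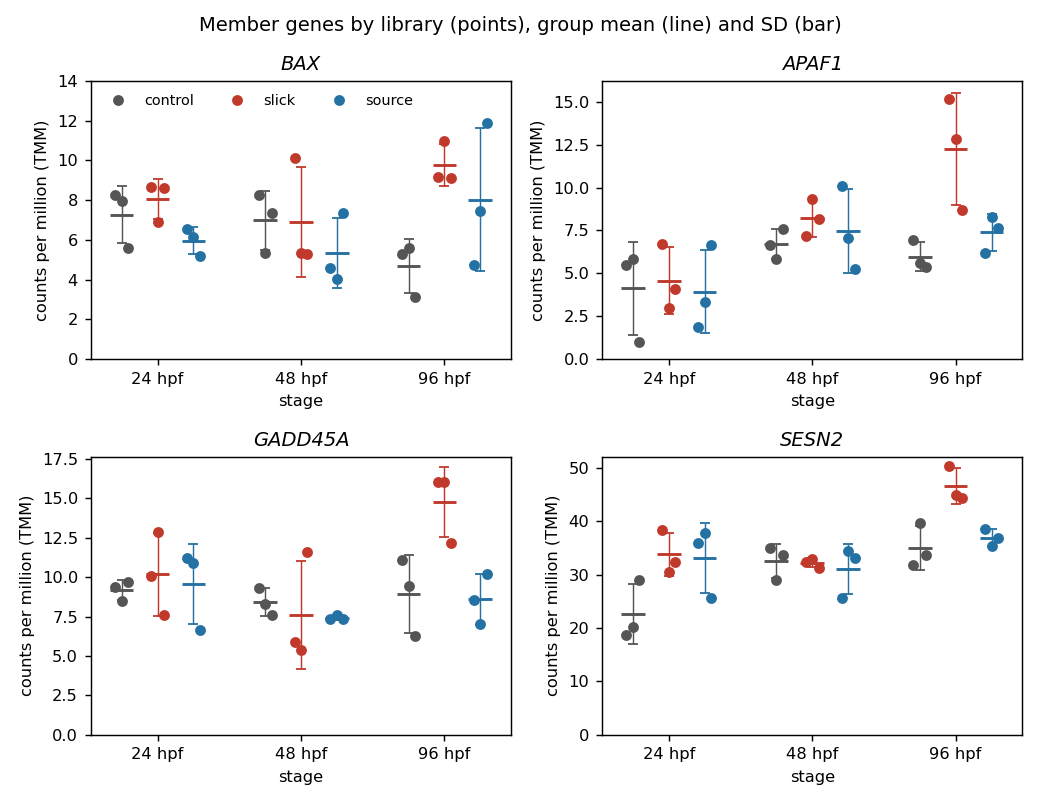
Level of each gene in CPM (TMM scaled, linear axis from 0) in the 27 libraries, by stage and oil. Points are libraries, lines are group means and bars are SD (n = 3). In slick at 96 hpf all 3 libraries lie above all 3 controls for each gene, with means of 9.77, 12.2, 14.8 and 46.6 CPM.

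Against controls, members were called in slick oil at 96 hpf, where 4 of 4 were called higher. Of all genes tested, 21.2% were called in that comparison, 10.9% were called higher, and 13.8% had slick libraries all above the controls. The members were thus called in a comparison where many genes were. BAX and APAF1 were about 2.0-fold and 2.1-fold higher, GADD45A 1.6-fold and SESN2 1.4-fold. Because whole larvae were sequenced, a change in the number of cells of a type and a change in RNA per cell cannot be told apart.

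BAX, the membrane-opening protein, stood at 9.17, 11 and 9.13 CPM in the slick libraries and at 5.32, 5.61 and 3.14 CPM in the controls. The groups did not overlap, and the lowest slick library was well above the highest control. The change was 2.01-fold (log2 change 1.01 ± 0.28 SE, 95% interval 0.46 to 1.56, adjusted p = 0.00361). The call held whichever of the 6 libraries was dropped, with adjusted p up to 0.0345.

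APAF1, the apoptosome scaffold, stood at 15.1, 12.8 and 8.70 CPM in slick and at 6.93, 5.61 and 5.38 CPM in controls. The groups did not overlap, and the slick libraries were spread more widely than the controls. The change was 2.06-fold (log2 change 1.04 ± 0.25 SE, 95% interval 0.55 to 1.54, adjusted p = 0.000638), and it was called without any 1 library, with adjusted p up to 0.0260.

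GADD45A, the growth arrest protein, stood at 16.1, 16.0 and 12.2 CPM in slick and at 11.1, 9.43 and 6.28 CPM in controls. The groups came close, since the lowest slick library lay just above the highest control. The change was 1.61-fold (log2 change 0.69 ± 0.22 SE, 95% interval 0.26 to 1.12, adjusted p = 0.0129). The call was lost without control replicate 14 (adjusted p = 0.0610), without slick replicate 7 (0.0693) and without slick replicate 8 (0.0744), and in DESeq2 (0.0999).

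SESN2, the nutrient-sensing sestrin, stood at 50.4, 44.9 and 44.3 CPM in slick and at 31.9, 39.7 and 33.6 CPM in controls. All slick libraries were above all controls. The change was 1.36-fold (log2 change 0.44 ± 0.12 SE, 95% interval 0.20 to 0.68, adjusted p = 0.00291). Without the control library summed from replicates 10 and 11 it was no longer called (adjusted p = 0.0513).

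The authors' deposited table for slick at 96 hpf gives a log2 change of 0.70 ± 0.25 (SE) for BAX with an adjusted p of 0.0321. For APAF1 the authors' deposited table gives 0.76 ± 0.24 and 0.0139. For SESN2 the authors' deposited table gives 0.46 ± 0.15 and 0.0181, and for GADD45A 0.53 ± 0.22 with an adjusted p of 0.0838. These are the authors' own estimates, from a fit whose settings the processing notes do not give. Their sizes are therefore not set against the changes above.

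In source oil at 96 hpf no member was called, against 1.1% of all genes. At an unadjusted p under 0.05 there was 1 member, BAX, against 792 of 8511 genes tested. DESeq2 gave an adjusted p for SESN2 alone of the members (0.999). BAX stood at 4.76, 7.43 and 11.9 CPM, so that the lowest source library lay among the controls and the highest above every slick library. Its change was 1.65-fold (log2 change 0.73 ± 0.29 SE, adjusted p = 0.330), and leaving out 1 library moved the log2 change between 0.33, without source replicate 18, and 0.97, without source replicate 16. APAF1 stood at 6.19, 8.31 and 7.64 CPM (log2 change 0.30 ± 0.28 SE, adjusted p = 0.811). GADD45A stood at 8.57, 7.00 and 10.2 CPM (log2 change -0.11 ± 0.25 SE, adjusted p = 0.943), inside the range of the controls. SESN2 stood at 38.6, 35.4 and 36.9 CPM (log2 change 0.08 ± 0.13 SE, adjusted p = 0.912), also inside it.

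Slick was compared with source directly at 96 hpf, where 3 of 4 members were called higher in slick, against 13.5% of all genes called. GADD45A was 1.74-fold higher (log2 change 0.80 ± 0.25 SE, 95% interval 0.31 to 1.29, adjusted p = 0.0166). APAF1 was 1.67-fold higher (log2 change 0.74 ± 0.27 SE, adjusted p = 0.0495) and SESN2 1.28-fold (log2 change 0.36 ± 0.13 SE, adjusted p = 0.0499). BAX did not pass (log2 change 0.28 ± 0.28 SE, 95% interval -0.27 to 0.84, adjusted p = 0.584). The APAF1 and SESN2 calls lay at the threshold. The SESN2 call was lost in 6 of 6 fits without 1 library, that of APAF1 in 5 and that of GADD45A in 3. GADD45A lost its call without slick replicate 7 (adjusted p = 0.0712), slick replicate 8 (0.0754) or source replicate 17 (0.115), and APAF1 kept its call only without slick replicate 9. No member was called with DESeq2 (adjusted p from 0.119 to 0.234 for these 3 genes). Both comparisons with slick at 96 hpf share the slick libraries.

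**Figure D2:**
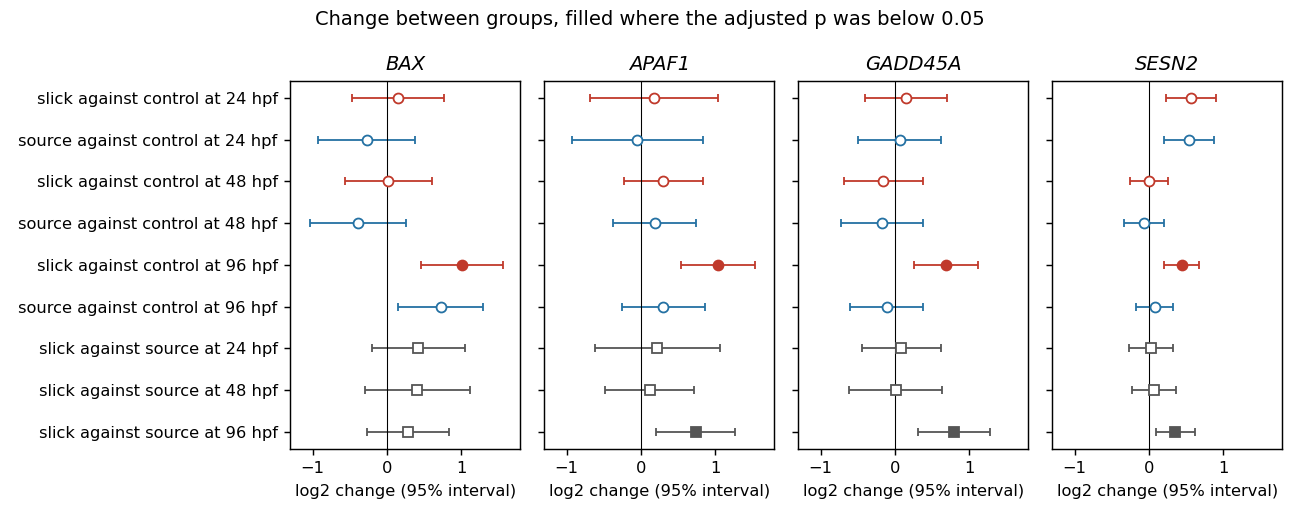
Log2 change of each gene (horizontal axis, with its 95% interval) in 9 comparisons between groups of a stage. Red is slick against control, blue source against control and grey squares slick against source. Filled symbols have an adjusted p below 0.05. All 4 genes are filled for slick against control at 96 hpf, and GADD45A, APAF1 and SESN2 for slick against source.

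At 24 hpf no member was called in slick, against 0.58% of all genes, or in source, against 1.69%. DESeq2 gave the members no adjusted p in either. SESN2 came nearest and was the 1 member with an unadjusted p under 0.05, in both oils. Of 7757 genes tested, 653 had such a p in slick and 925 in source. SESN2 stood at 18.7, 20.2 and 29.1 CPM in controls, at 38.4, 30.6 and 32.5 CPM in slick and at 36.0, 37.8 and 25.6 CPM in source. Slick libraries were all above the controls, by a little in 1 case, and source libraries overlapped them. Slick and control libraries did not overlap, in either direction, for 12.7% of all genes tested at 24 hpf. The changes of SESN2 were 1.48-fold in slick (log2 change 0.57 ± 0.17 SE, adjusted p = 0.116) and 1.46-fold in source (0.54 ± 0.17 SE, adjusted p = 0.0689). Without control replicate 3, the highest control, both passed (adjusted p = 0.0397 in slick and 0.0268 in source), and source also passed without source replicate 12 (0.0168). Over the 6 fits without 1 library, the adjusted p of SESN2 reached 0.573 in slick and 0.387 in source. These comparisons share their controls. BAX, APAF1 and GADD45A had log2 changes between -0.27 and 0.18 in both oils. For APAF1 in slick the 95% interval reached from -0.68 to 1.03, which takes in 0 as well as nearly the change seen at 96 hpf.

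At 48 hpf no member was called in slick, against 3.3% of all genes, or in source, against 1.32%. At an unadjusted p under 0.05 the count was also 0, against 1113 of 8060 genes tested in slick and 1027 in source. DESeq2 called none in slick and gave the members no adjusted p in source. SESN2 was nearly level across the stage, at 35.0, 29.0 and 33.7 CPM in controls, 32.4, 33 and 31.3 in slick, and 25.7, 34.4 and 33.1 in source. Its slick change was 0.00 on the log2 scale (95% interval -0.26 to 0.26). BAX stood at 8.27, 5.36 and 7.35 CPM in controls, at 10.1, 5.35 and 5.30 in slick and at 4.59, 4.05 and 7.35 in source, with 1 slick library high and the groups overlapping. APAF1 stood at 6.67, 5.85 and 7.61 CPM in controls against 7.16, 9.36 and 8.19 in slick (log2 change 0.30 ± 0.27 SE, adjusted p = 0.680). In source APAF1 stood at 10.1, 7.08 and 5.25 CPM (log2 change 0.18 ± 0.28 SE, adjusted p = 0.850). GADD45A stood at 9.34, 8.29 and 7.61 CPM in controls against 5.89, 5.35 and 11.6 in slick, where 1 library was above and 2 were below every control. In source GADD45A stood at 7.35, 7.59 and 7.35 CPM, all just below the controls (log2 change -0.17 ± 0.27 SE, adjusted p = 0.863). Source and control libraries did not overlap for 18.1% of all genes tested at 48 hpf. Slick against source called no member at 24 hpf, against 0.219% of all genes, or at 48 hpf, against 0.744%, with 0 also at an unadjusted p under 0.05. Such a p was found for 591 of 7757 genes tested at 24 hpf and 814 of 8060 at 48 hpf. DESeq2 called none at 24 hpf and gave the members no adjusted p at 48 hpf.

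Whether the response to oil differed between stages was tested as an interaction. For slick at 96 against 48 hpf no member passed, against 11.6% of all genes. The differences of the log2 changes were 0.95 ± 0.39 (SE) for BAX, 0.81 ± 0.34 for GADD45A, 0.70 ± 0.38 for APAF1 and 0.40 ± 0.18 for SESN2, with adjusted p from 0.109 to 0.261. At an unadjusted p under 0.05 there were 3 (BAX, GADD45A and SESN2), against 2096 of 8898 genes tested. DESeq2 called 0, with no adjusted p for APAF1. The late increase in slick is therefore not shown to differ from the change at 48 hpf for any member. BAX passed without slick replicate 4 of 48 hpf (adjusted p = 0.0283), which was its high library, and GADD45A without slick replicate 6 of 48 hpf (0.0224). Over the 12 fits without 1 library, the adjusted p reached 0.254 for BAX and 0.316 for GADD45A. No member passed for slick at 48 against 24 hpf, against 0.674% of all genes, for source at 48 against 24 hpf, against 0.146%, or for source at 96 against 48 hpf, against 0.652%. In each of these, 1 member had an unadjusted p under 0.05 (SESN2, SESN2 and BAX). Among the 8898 genes tested, 759, 707 and 954 had such a p, in the same order. DESeq2 called 0 in the slick interaction and gave the members no adjusted p in both source interactions.

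Levels were also compared between stages. From 24 to 48 hpf, 1 member was called in controls, against 47.9% of all genes. That gene was SESN2, which rose 1.41-fold (log2 change 0.50 ± 0.15 SE, adjusted p = 0.00455) but was not called without control replicate 1 of 24 hpf (0.0633). In slick the called member was APAF1, against 44.8% of all genes, which rose 1.77-fold (adjusted p = 0.0487), and in source it was again APAF1, against 45.6%, which rose 1.91-fold (adjusted p = 0.0338). APAF1 in controls changed by 0.70 ± 0.35 (SE) on the log2 scale (adjusted p = 0.0971), and passed without control replicate 2 of 24 hpf (0.0465). Over all fits without 1 library, its adjusted p in controls reached 0.675. The APAF1 calls in oil were lost in 4 of 6 slick fits and 3 of 6 source fits without 1 library, with adjusted p up to 0.230 and 0.248. Libraries at 24 hpf held 2 to 14 counts of APAF1.

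From 48 to 96 hpf no member was called in controls, against 62.3% of all genes, or in source, against 52.8%, with 0 also at an unadjusted p under 0.05 and with DESeq2. Of 8898 genes tested, 5829 in controls and 5094 in source had an unadjusted p under 0.05. In slick 2 members were called higher, against 55.1% of all genes: GADD45A rose 1.97-fold (log2 change 0.98 ± 0.26 SE, adjusted p = 0.000655) and SESN2 1.45-fold (0.54 ± 0.14 SE, adjusted p = 0.000475). Both calls held without any 1 library. Over the same interval GADD45A changed by 0.17 ± 0.22 in controls and SESN2 by 0.13 ± 0.12. BAX changed by -0.47 ± 0.27 in controls (adjusted p = 0.118), by 0.48 ± 0.29 in slick and by 0.63 ± 0.33 in source, none of which passed.

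MDM2, the ligase that degrades p53 and is itself a p53 target, had a log2 change of 0.22 in slick against control at 96 hpf (adjusted p = 0.169). None of 6 tested genes of DNA damage signalling was called there, where 21.2% of all genes tested were called. At an unadjusted p under 0.05, 2 were lower, and 2689 of 8511 genes tested had such a p in either direction. The list's median log2 change was -0.47, against 0.01 over all genes tested. CDKN1A, the cell cycle inhibitor that is the best-known p53 target, was not found under its own symbol among the features with a count. It could therefore not be tested.

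Of 16 tested p53 targets in growth arrest and repair, 5, GADD45A and SESN2 among them, were called higher and 1 lower in slick at 96 hpf. Of all genes tested, 21.2% were called there and 10.9% were called higher. The list's median log2 change was 0.26, against 0.01 over all genes. In source none was called, against 1.1% of all genes, with a median of 0.04. There, 1 was lower at an unadjusted p under 0.05, and 792 of 8511 genes tested had such a p in either direction. Besides GADD45A and SESN2, RRM2B, a ribonucleotide reductase subunit for repair, rose from 27.3, 25.6 and 22.9 CPM in controls to 41.3, 45.8 and 35.7 in slick (log2 change 0.72 ± 0.13 SE, adjusted p = 5.4e-06). PLK2, a stress-responsive kinase, stood at 51.4, 59.1 and 53.9 CPM in slick and 46.0, 38.8 and 32.7 in controls (log2 change 0.49 ± 0.11 SE, adjusted p = 0.000411). CCNG1, cyclin G1, rose by 0.27 ± 0.06 on the log2 scale. These 3 genes were called without any 1 library. SESN1, another sestrin in the list, fell by 0.21 ± 0.06 on the log2 scale (adjusted p = 0.00603), in the opposite direction to SESN2. In source SESN1 had a log2 change of -0.21 that did not pass. SESN3, also in the list, was not called in slick and is given below. The slick call of SESN1 was lost without control replicates 12 and 13 (adjusted p = 0.0837).

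No other measured paralog of a member was called in slick at 96 hpf. SESN3 had a log2 change of 0.21 in slick at 96 hpf (adjusted p = 0.151) and GADD45G 0.25 (adjusted p = 0.618). GADD45B, with 199 counts in all, passed the low-count filter at 96 hpf only, where its log2 change was -0.50 (adjusted p = 0.300). Whether a paralog's change differs from that of a member was not tested.

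**Figure D3:**
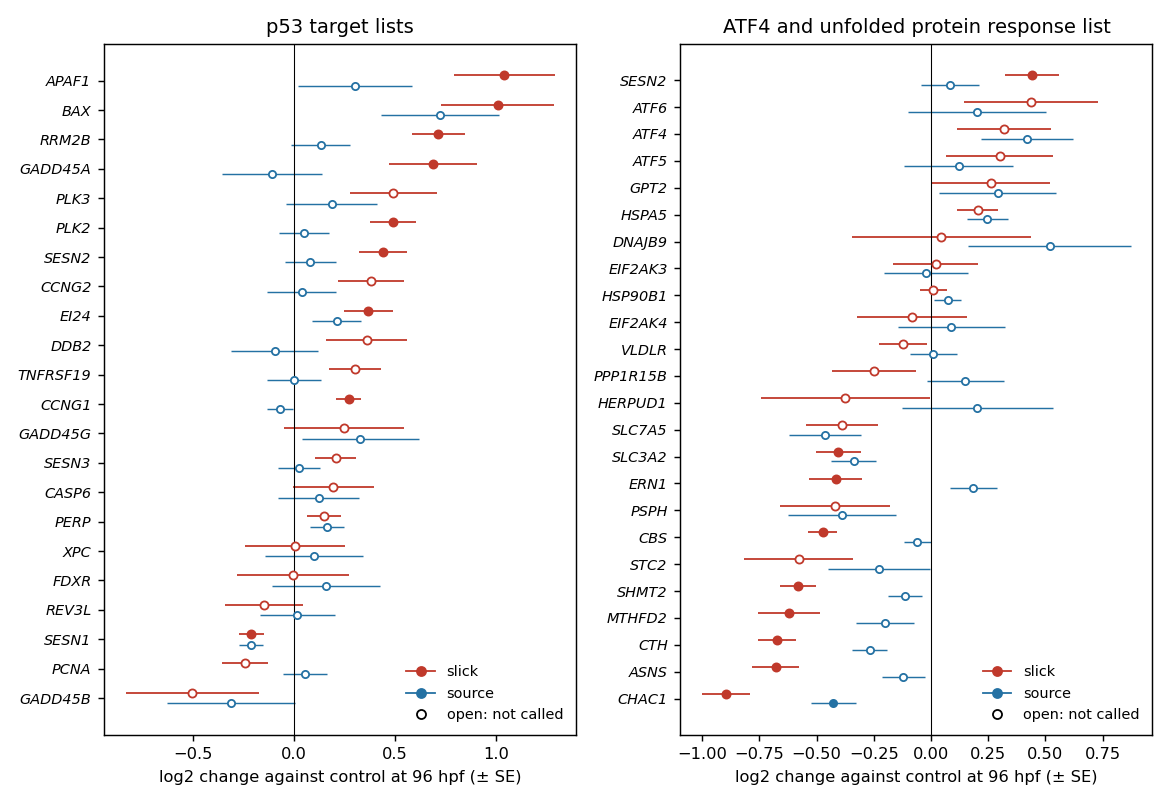
Log2 change against control at 96 hpf, with its SE, of the tested genes of the p53 target lists (left) and of the ATF4 and unfolded protein response list (right). Red is slick and blue source, and open symbols did not pass an adjusted p of 0.05. APAF1, BAX, RRM2B and GADD45A lead on the left, whereas on the right SESN2 is the only filled gene above 0 in slick.

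Of 6 tested p53 targets in cell death, 3 were called higher in slick at 96 hpf, against 10.9% of all genes called higher. They were the members BAX and APAF1, and EI24, a membrane protein of the endoplasmic reticulum (log2 change 0.37 ± 0.12 SE). The list's median, which includes both members, was 0.34. The EI24 call was lost without control replicates 10 and 11 (adjusted p = 0.0920) or 12 and 13 (0.0519). It was also lost without slick replicate 9 (0.257) and in DESeq2 (0.146). PERP, a p53 target in cell adhesion and death, was called at another stage, in source at 24 hpf (73.9 ± 2.41 CPM in controls, 95.7 ± 5.61 in source, adjusted p = 0.0250), a call lost in 5 of 6 fits without 1 library.

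The BCL2 family sets how readily mitochondria are opened. Of 7 tested genes in the list of that family and its binding partners, 3 were called higher in slick at 96 hpf and none lower. BAX, already counted above, was 1 of these 3, and 10.9% of all genes were called higher. The median log2 change of the list, BAX included, was 0.44. BNIP3, a mitochondrial protein also induced by low oxygen, stood at 48.2, 54.1 and 50.4 CPM in slick and at 38.8, 38.4 and 39.0 in controls (log2 change 0.44 ± 0.11 SE, adjusted p = 0.00162). BNIP2, a binding partner rather than a member of the family, had a log2 change of 0.45 ± 0.17 SE (adjusted p = 0.0459), with overlapping groups. Its call was lost in 4 of 6 fits without 1 library. BCL2L1, which opposes BAX, had a log2 change of -0.19 (adjusted p = 0.749).

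Other genes act beside or after BAX and APAF1, and their counts can be read against the 21.2% of all genes called. Of 12 tested genes of the apoptosome and mitochondrial release, 2 were called higher, APAF1 and TMBIM6, a membrane protein that opposes BAX, whose groups overlapped (log2 change 0.22 ± 0.08 SE), and 1 lower, AIFM1, an oxidoreductase that can enter the nucleus in cell death (log2 change -0.22 ± 0.07 SE). Their median was 0.00. Without 1 library the TMBIM6 call was lost in 4 of 6 fits (adjusted p up to 0.223) and that of AIFM1 in 2 (up to 0.174), and DESeq2 called neither (0.213 and 0.0711). Of 11 tested caspases, inhibitors and substrates none was called higher and 2 lower. The lower genes were substrates rather than proteases, namely PARP1, a DNA repair enzyme (log2 change -0.30 ± 0.09 SE, lost without control replicates 12 and 13 at adjusted p = 0.0565 and in DESeq2 at 0.0699), and CAD, the first enzyme of pyrimidine synthesis, at 52.3, 59.1 and 56.5 CPM in slick against 103, 102 and 99.1 in controls (adjusted p = 5.1e-13). CASP9, which APAF1 activates, had a log2 change of 0.06 in slick against control (adjusted p = 0.924). Transcript levels do not show whether caspases were active.

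Of 8 tested genes of the death receptor route, 3 were called higher in slick at 96 hpf, against 10.9% of all genes called higher. TNFRSF21, death receptor 6, stood at 14.7, 13.3 and 10.9 CPM against 5.55, 8.30 and 6.72 in controls (log2 change 0.95 ± 0.24 SE, adjusted p = 0.00129). DAPK1, a death-associated kinase, and PDCD6, a calcium-binding protein, had log2 changes of 0.49 ± 0.16 (SE) and 0.27 ± 0.08. The DAPK1 call was lost without slick replicate 7 (adjusted p = 0.108) and in DESeq2 (0.106), and the PDCD6 call without slick replicate 8 (0.0606) and in DESeq2 (0.0699).

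Of 14 tested partners of GADD45 proteins and stress kinases, MAP3K5 was called higher (log2 change 0.33 ± 0.11 SE, lost in 3 of 6 fits without 1 library with adjusted p up to 0.107, and in DESeq2 at 0.113) and CDK1, the mitotic kinase that GADD45A binds, lower (-0.34 ± 0.09 SE), with a median of -0.02. Of 22 tested sestrin partners and nutrient-sensing genes, 4 were called higher and 1 lower, with a median of 0.08. Both lists can be read against the 21.2% of all genes called in slick at 96 hpf. EIF4EBP2, which blocks translation when mTORC1 is off, stood at 172, 177 and 184 CPM against 122, 115 and 126 in controls (adjusted p = 7.9e-12). RPS6KB1, a kinase that mTORC1 activates, stood at 64.2, 64.2 and 64.8 CPM against 87.1, 95.8 and 85.2 (adjusted p = 6.8e-05). PRDX1, a peroxidase that sestrins help to restore, rose by 0.45 ± 0.06 on the log2 scale in slick and by 0.31 ± 0.06 in source. PRKAA2 and PRKAB2 were also called higher in slick, with log2 changes of 0.37 and 0.42. Both calls were lost in 4 of 6 fits without 1 library (adjusted p up to 0.244 and 0.263) and in DESeq2 (0.196 and 0.218).

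SESN2 is also a target of ATF4, and the part of ATF4 or of p53 in its change was not tested. Of 24 tested genes of the ATF4 and unfolded protein response list, SESN2 was the 1 called higher in slick at 96 hpf, whereas 8 were called lower. Of all genes tested, 21.2% were called there. The list's median log2 change was -0.31, against 0.01 over all genes. CHAC1, which breaks down glutathione, stood at 44.0, 52.7 and 48.7 CPM in slick and at 117, 77.9 and 80.2 in controls (log2 change -0.90 ± 0.11 SE, adjusted p = 2.2e-12). CTH, which makes cysteine, stood at 81.2, 77.0 and 73.0 CPM against 126, 129 and 125 (adjusted p = 1.1e-11). ASNS, asparagine synthetase, fell by 0.68 ± 0.10 on the log2 scale, and CBS, SHMT2, MTHFD2, SLC3A2 and ERN1 by 0.41 to 0.62. In source CHAC1 alone was called (log2 change -0.43 ± 0.10 SE), against 1.1% of all genes, and the median was 0.04. That call was lost in 3 of 6 fits without 1 library, with a log2 change of -0.18 (adjusted p = 0.731) without control replicates 10 and 11, and in DESeq2 (0.193). At 24 hpf CHAC1 was instead higher in source, at 105 ± 12.3 CPM against 67.2 ± 2.82 in controls (adjusted p = 3.7e-06).

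**Figure D4:**
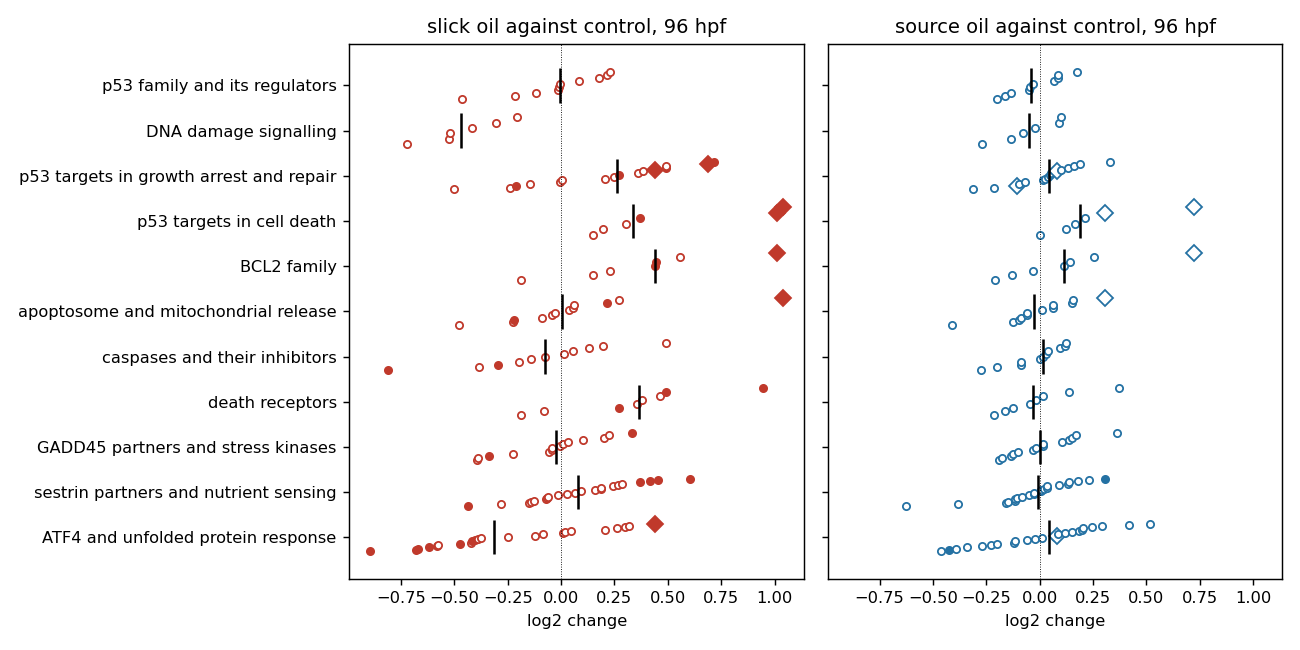
Log2 change against control at 96 hpf of each tested gene in 11 lists, for slick (left) and source (right). Filled symbols have an adjusted p below 0.05, diamonds are the 4 members and black bars are list medians. In slick the p53 target and BCL2 family lists have medians of 0.26 to 0.44 and the ATF4 list -0.31, members included.

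Tissue markers also moved in slick at 96 hpf, where 21.2% of all genes tested were called. The summed level of 6 lens markers with a line was 342 to 523 CPM in slick against 993 to 1047 in controls, and 4 of 4 tested were called lower. For 7 markers of proliferating cells the sums were 221 to 247 CPM against 315 to 346, with 3 called lower. For 4 epidermis markers they were 235 to 238 CPM against 330 to 361, with 3 of 4 called lower, and for 4 red blood cell markers 143 to 150 CPM against 191 to 207, with 3 of 4 lower. The sums of 5 skeletal muscle markers were 36477 to 37727 CPM in slick against 29836 to 31498, with 3 of 5 called higher. For 5 neuron markers they were 341 to 357 CPM against 362 to 375, with GAP43 at 0 in all 96 hpf groups and 1 of 4 tested called lower. For 5 liver markers they were 1096 to 1414 CPM against 1001 to 1099, with 2 of 4 tested called higher and 1 lower. The part of these shifts in the members' changes was not tested.

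The genes whose levels ran most like each member over the 27 libraries were named by Pearson's r on log2 CPM, as a description, among 4894 genes. They were PSMD13 (r = 0.67), DHX16 (0.64) and INSIG2 (0.64) for BAX, and TLL1 (0.83), TMEM50A (0.82) and TBC1D9B (0.78) for APAF1. For GADD45A they were IGFBP1 (0.71), ADCK3 (0.70) and NDUFA9 (0.69), and for SESN2 they were PKD2 (0.75), LIMK2 (0.75) and PLK2 (0.73). Among the members themselves r ran from 0.04 (APAF1 with GADD45A) to 0.42 (GADD45A with SESN2). The points share stage and oil groups, and low counts hold r down.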

How the data were processed

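Whole-animal RNA, 30 pooled embryos or larvae per replicate, was made into TruSeq libraries, per the labels' protocols. The authors deposited raw whole-number counts in a table of 42538 lines, nearly all tied to a human Entrez identifier. The submitters' processing notes name HTSeq, hg19 (a human build) and DESeq2, with no role or version. The step that ties fish reads to human genes is not stated there. In the authors' deposited comparison tables each gene has a mean of normalised counts (a signal), a log2 fold change, its error, a Wald score and raw and adjusted p-values, per the file headers.

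For each of 12653 identifiers the table line of highest total was used, and 256 identifiers with identical counts were joined into 103 features. Lines without an identifier (332, at most 0.043% of counts) were left out. Control samples of 1 group were summed where chi-square over genes of 20 or more counts gave p of at least 0.001. Genes were tested in R 4.3.3 with edgeR 4.0.16 (TMM, filterByExpr, quasi-likelihood F-test, two-sided, Benjamini-Hochberg over all genes tested, called below 0.05). Oil comparisons were fitted over the 9 libraries of a stage, and development and interactions over all 27. The fits were tested on simulated data, with changes placed only in genes above a minimum mean count. That test says little about members counted as low as BAX and APAF1. Alternatives were RLE scaling, no low-count filter, summed lines, 32 separate samples, other groups in the fit, DESeq2 1.42.0, leaving out each library and, at 24 hpf, a replicate block. Intervals cover the spread between these samples only.

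Members and lists (284 genes in 19 lists, 199 with a line) were chosen with earlier results of these data known. Genes named beside the members were up to 2 called genes of lowest p per list, direction and comparison with groups that do not overlap, the members' paralogs, MDM2, CDKN1A, CASP9 and BCL2L1, and the 3 genes most like each member (prior count 2, mean count at least 50). Some other called genes of a list are named beside its count, and these were chosen after their values were seen. Other genes that this rule names are not reported here. Mahi-mahi sequences and coordinates were not used here.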

Additional observations from a re-analysis of the deposited data

Results flagged for a closer look

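For 49 genes of the lists, the members included, the change in oil against control was tested for a difference between stages (edgeR's quasi-likelihood interaction, adjusted over all genes). Much of this set was taken because it was called in oil comparisons of these same libraries, which favours a difference between stages. For slick at 96 against 48 hpf 13 of 49 passed, against 11.6% of all genes. For slick at 48 against 24 hpf 2 passed, against 0.674%, and for source at 96 against 48 hpf 1, against 0.652%. The following passed. Values are differences of log2 changes, later stage minus earlier. In slick, 96 against 48 hpf, the change against control was lower at the later stage for genes of the ATF4 list, with a difference of -1.19 for CHAC1 (adjusted p = 1.3e-09), -0.99 for CTH (1.7e-08), -0.93 for MTHFD2 (0.000229), -0.79 for CBS (3.2e-08), -0.64 for ASNS (0.00259) and -0.53 for SHMT2 (0.000348). In source, CHAC1 had a difference of -0.57 (adjusted p = 0.0425). The caspase substrates CAD and PARP1 had slick differences of -0.89 (adjusted p = 1.4e-07) and -0.37 (0.0122), and AIFM1 had -0.35 (0.00489). Among nutrient-sensing genes the slick differences were 0.69 for EIF4EBP2 (adjusted p = 2.0e-06), 0.30 for PRDX1 (0.00453) and -0.62 for RPS6KB1 (0.000179). FOXQ1, a target of the hydrocarbon receptor, had 0.70 (adjusted p = 0.00292). For slick at 48 against 24 hpf, AHRR, the repressor of that receptor, had a difference of 2.04 (adjusted p = 0.0132) and PPP1R15B, a phosphatase subunit of the ATF4 list, -1.42 (0.00468). None of the 4 members was among them.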

How the results depend on the processing

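Slick against control at 96 hpf called 4 members under 5 alternatives and 3 with DESeq2, where GADD45A was lost, against 3 to 4 when 1 library was left out. Every member kept its direction there. No member was called in source at 96 hpf, or against control at 48 hpf, under any alternative that gave it an adjusted p (DESeq2 gave none to several members). The 3 calls of slick against source at 96 hpf did depend on the setting. The slick change of SESN2 at 48 hpf lay at 0 and took either sign: -0.00654 without the low-count filter, -0.00249 with lines summed, -0.000732 with 32 samples, -0.00092 with other groups in the fit, -0.00124 with DESeq2 and -0.00437 in its second table line. The causes were not tested. At 24 hpf, control and slick share replicate numbers, but same-numbered libraries deviated together little (r = 0.0403, 0.0161 and 0.0027), so the numbers were not taken as pairs. A replicate block called 71 genes, against 45, or 44 with these 2 groups alone, and no member. With Spearman's rho in place of Pearson's r, 2 of the 3 most alike genes by level were shared for BAX, 1 for APAF1, 1 for GADD45A and 0 for SESN2. BAX, APAF1 and GADD45A had at most 48 counts in any library, which limits the precision of their values. With the distinct lines of a gene summed called genes numbered 6 for slick at 24 hpf, 44 for source at 24 hpf, 148 for slick at 48 hpf, 34 for source at 48 hpf, 10 for source at 96 hpf, 3 for slick against source at 24 hpf, 27 for slick against source at 48 hpf, 33 for the slick interaction 48 against 24 hpf and 11 for the source interaction 96 against 48 hpf, and called members 0 for slick against source at 96 hpf, 0 for 24 to 48 hpf in slick and 0 for 24 to 48 hpf in source. With DESeq2 called genes numbered 20 for slick at 24 hpf, 86 for source at 24 hpf, 124 for slick at 48 hpf, 58 for source at 48 hpf, 1038 for slick at 96 hpf, 49 for source at 96 hpf, 5 for slick against source at 24 hpf, 37 for slick against source at 48 hpf, 664 for slick against source at 96 hpf, 34 for the slick interaction 48 against 24 hpf and 659 for the slick interaction 96 against 48 hpf, and called members 0 for slick against source at 96 hpf, 0 for 24 to 48 hpf in slick and 0 for 24 to 48 hpf in source. Without the low-count filter called genes numbered 110 for slick against source at 48 hpf and 31 for the source interaction 48 against 24 hpf, and called members 1 for slick against source at 96 hpf. With the 32 samples kept apart called genes numbered 182 for source at 48 hpf, 22 for the source interaction 48 against 24 hpf and 113 for the source interaction 96 against 48 hpf. With other groups in the fit called genes numbered 18 for slick at 24 hpf, 10 for slick against source at 24 hpf and 22 for the source interaction 48 against 24 hpf, and called members 1 for slick against source at 96 hpf. With RLE scaling called members 1 for slick against source at 96 hpf. Leaving out 1 library, called genes ranged from 16 to 45 for slick at 24 hpf, from 53 to 111 for source at 24 hpf, from 170 to 285 for slick at 48 hpf, from 26 to 101 for source at 48 hpf, from 46 to 105 for source at 96 hpf, from 4 to 20 for slick against source at 24 hpf, from 33 to 116 for slick against source at 48 hpf, from 33 to 74 for the slick interaction 48 against 24 hpf, from 5 to 17 for the source interaction 48 against 24 hpf and from 32 to 76 for the source interaction 96 against 48 hpf. Called members ranged from 0 to 1 for slick at 24 hpf, from 0 to 1 for source at 24 hpf, from 0 to 2 for slick against source at 96 hpf, from 0 to 2 for 24 to 48 hpf in control, from 0 to 1 for 24 to 48 hpf in slick, from 0 to 1 for 24 to 48 hpf in source, from 0 to 1 for 48 to 96 hpf in control, from 0 to 1 for 48 to 96 hpf in source and from 0 to 1 for the slick interaction 96 against 48 hpf. Log2 changes that did not pass the test and changed sign in some of those fits had these ranges. For BAX they ran -0.0149 to 0.25 for slick at 24 hpf, -0.38 to 0.18 for slick at 48 hpf, -0.24 to 0.0934 for 24 to 48 hpf in control, -0.53 to 0.0324 for the slick interaction 48 against 24 hpf and -0.39 to 0.0559 for the source interaction 48 against 24 hpf. For APAF1 they ran -0.30 to 0.52 for slick at 24 hpf, -0.64 to 0.30 for source at 24 hpf, -0.11 to 0.38 for source at 48 hpf, -0.17 to 0.81 for slick against source at 24 hpf, -0.075 to 0.41 for slick against source at 48 hpf, -0.21 to 0.27 for 48 to 96 hpf in source, -0.22 to 0.60 for the slick interaction 48 against 24 hpf, -0.11 to 0.83 for the source interaction 48 against 24 hpf and -0.0774 to 0.40 for the source interaction 96 against 48 hpf. For GADD45A they ran -0.0511 to 0.31 for slick at 24 hpf, -0.0692 to 0.27 for source at 24 hpf, -0.56 to 0.0386 for slick at 48 hpf, -0.25 to 0.0706 for source at 96 hpf, -0.12 to 0.25 for slick against source at 24 hpf, -0.40 to 0.21 for slick against source at 48 hpf, -0.00111 to 0.29 for 48 to 96 hpf in control and -0.10 to 0.22 for the source interaction 96 against 48 hpf. For SESN2 they ran -0.0795 to 0.0552 for slick at 48 hpf, -0.15 to 0.0626 for source at 48 hpf, -0.13 to 0.13 for slick against source at 24 hpf, -0.0649 to 0.14 for slick against source at 48 hpf, -0.15 to 0.026 for 24 to 48 hpf in slick and -0.26 to 0.0233 for 24 to 48 hpf in source.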
